A study of Mus musculus with 2 samples.

Results

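The genes described are p53 and its classical direct target genes, apart from the inhibitors of cyclin-dependent kinases. The list held 10 genes, namely Trp53, Mdm2, Ccng1, Bax, Bbc3, Trp53inp1, Sesn1, Sesn2, Phlda3 and Zmat3. They were chosen by name, and a gene was measured where a probe set carried its symbol and no other. This gave a value for 8 of the 10, among 19938 genes measured in all. For Trp53, which encodes p53 itself, and Bax no value was analysed here, so the level of the p53 transcript is not part of the comparison. The same holds for Cdkn1a, the best known p53 target among the kinase inhibitors, because its probe set carried a second symbol.

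The cells were mouse embryonic fibroblasts (MEFs), which are primary cultures of embryonic connective tissue, here from embryos at 13.5 days post coitum. One culture was of the genotype MatDup.dist7, in which both copies of distal chromosome 7 are of maternal origin, and the other of the genotype PatDup.dist7, in which both are of paternal origin. Both were grown in the same serum-containing medium with β-mercaptoethanol, and each was hybridised to 1 array. The sources used here do not give the number of embryos behind each culture, their strain or the passage. With 1 array per genotype there is no replicate and no test between genotypes, and every difference below compares these 2 arrays. Paired values are given with MatDup.dist7 first and PatDup.dist7 second.

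The protein p53 is a transcription factor that is kept scarce by Mdm2, a ubiquitin ligase that marks it for degradation. DNA damage, oxidative stress and oncogene activity free p53 from Mdm2, and p53 then switches on genes that halt the cell cycle, repair DNA, adjust metabolism or kill the cell. Mdm2 is itself a target, which closes a negative feedback loop. Primary MEFs are a classical system for p53 because culture stress engages the pathway and p53 limits their life span.

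The p53 protein binds a pair of copies of a short element, the p53 half-site. The RefSeq promoter table (build GRCm38.p6) held 300 bases around the start site, 250 before and 50 after it, for 8 of the 10 genes, in 11 windows. It held none for Trp53inp1 and Zmat3. The p53 half-site, a pattern that reads alike on both strands, was searched by exact match and was the only motif searched. It was found in 5 of the 11 windows, against 8.36% of all 32851 windows of the same length. These 5 belonged to Trp53, Bax, Mdm2, Ccng1 and Sesn1. Each held a single exact match, so no window held a pair of exact half-sites. The 11 windows are not independent, since some of those of Bbc3 overlap. The 250 bases before the start site are shown for Mdm2, the gene with the largest difference between the arrays, and 60 bases around the match for the other measured genes with one, Ccng1 and Sesn1. The half-site is in capitals. The Mdm2 stretch lies at chr10:117710759-117711008 on the minus strand, the Ccng1 stretch at chr11:40755437-40755496 on the minus strand and the Sesn1 stretch at chr10:41887241-41887300 on the plus strand. All are written 5′ to 3′ on the strand of the gene.
Mdm2: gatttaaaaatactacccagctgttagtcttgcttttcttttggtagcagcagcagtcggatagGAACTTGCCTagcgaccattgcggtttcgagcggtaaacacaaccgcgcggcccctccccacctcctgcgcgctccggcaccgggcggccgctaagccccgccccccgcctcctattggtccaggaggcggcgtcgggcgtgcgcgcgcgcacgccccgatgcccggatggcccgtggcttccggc
Ccng1: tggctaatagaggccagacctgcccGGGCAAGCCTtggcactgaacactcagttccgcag
Sesn1: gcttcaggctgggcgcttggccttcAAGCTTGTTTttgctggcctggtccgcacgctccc

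The half-site began 186 bases before the start site in Mdm2, 185 in Ccng1 and 173 in the second of the Sesn1 windows. A match describes the letters of the window and not a bound site, and the lack of one says nothing about binding elsewhere in the gene. These 3 genes did not share a direction in the expression data given below.

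The measured targets differed little and in both directions. Mdm2, Trp53inp1, Phlda3, Sesn2 and Ccng1 had the lower value in MatDup.dist7, and Sesn1, Zmat3 and Bbc3 the higher. Only Mdm2 was at least 1.5-fold apart on the scale used, log2(intensity + 16), as were 27.9% of all genes, and none was 2-fold apart (7.63% of all genes were). The median difference of the 8 genes, MatDup.dist7 minus PatDup.dist7, was -0.22, with a range from -0.62 to 0.56, and that of all genes was 0.02. In whole cultures, fewer cells of a type and less RNA per cell cannot be told apart. All 8 measured genes lay above the signal filter, an intensity of 66.4 in the higher array, and each rested on 1 probe set.

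Mdm2, the ligase of the feedback loop, stood at an intensity of 1018 against 1576 for PatDup.dist7. The difference of -0.62 (1.54-fold) was the largest of the 8. Ccng1, which encodes cyclin G1, a target that acts back on p53 through Mdm2, had 6283 and 7236, a difference of -0.20. Trp53inp1, which encodes a nuclear protein that promotes the killing activity of p53 and autophagy, had 525 and 745, a difference of -0.49 (1.41-fold). All 3 were lower in MatDup.dist7. Genes described below whose products act against p53 differed in sign. Mdm4 (-1.11) and Gtse1 (-0.60) were lower in MatDup.dist7, and Rchy1 (0.32), Cop1 (0.26) and Ppm1d (0.18) higher. The differences of the 3 higher ones were smaller than the probe-set standard deviation of 0.40 explained below.

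The genes that act on cell death and growth signalling were split. Bbc3 encodes PUMA, a BH3-only protein that neutralises the survival members of the BCL-2 family. Its intensity was 258 on the MatDup.dist7 array against 170.0, a difference of 0.56 (1.48-fold), the highest of the 8 and opposite in sign to that of Mdm2. The gap between Bbc3 and Mdm2 was 1.18 on the log2 scale. Phlda3, which encodes a pleckstrin-homology protein that restrains Akt signalling, had 1359.7 and 1712, a difference of -0.33 (1.26-fold).

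The sestrins, stress-induced proteins that restrain mTORC1 signalling and protect against oxidants, differed in sign. Sesn2 had 547 and 646, a difference of -0.23. Sesn1 had 313 and 296, a difference of 0.07 and the smallest of the 8. Zmat3, which encodes a zinc-finger RNA-binding protein also known as Wig-1, had 337 and 277, a difference of 0.27 (1.20-fold). The plot of intensities by gene shows the small distances between the arrays.

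**Figure D1:**
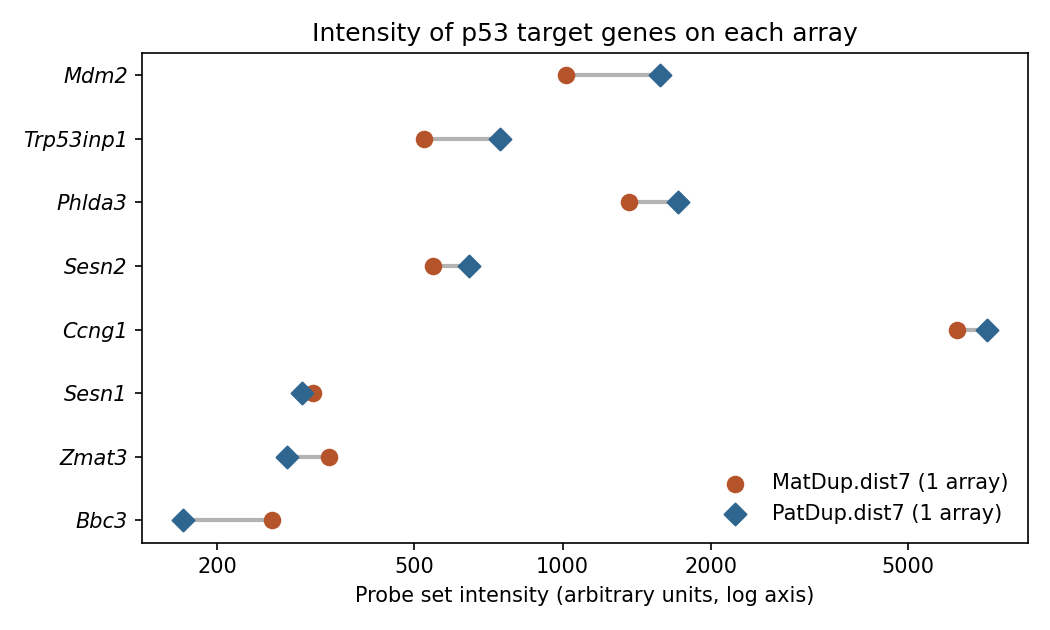
Probe set intensity of the 8 measured p53 target genes on a log axis in arbitrary units, with a circle for the MatDup.dist7 array and a diamond for the PatDup.dist7 array. Mdm2 (1018 and 1576) and Bbc3 (258 and 170.0) are the genes with the widest distances, in opposite directions; levels of different genes are not comparable across probe sets.

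The size of these differences was set against the other genes on the arrays. Over all 19938 genes, 27.9% were at least 1.5-fold apart in either direction and 48.6% had a lower value in MatDup.dist7. The probe sets of the p53 targets had high signals, and differences were smaller among such genes. Of the 5221 genes whose mean log2 level was at least that of Bbc3, the lowest of the 8, 10.3% were at least 1.5-fold apart and 58.7% were lower in MatDup.dist7. The median difference of these 5221 genes was -0.09. Against this, 1 of the 8 targets (12.5%) was at least 1.5-fold apart and 5 of 8 (62.5%) were lower in MatDup.dist7. Both shares are close to those of the genes at such levels.

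Within the same 5221 genes the central 95% of differences ran from -0.75 to 0.68, and all 8 targets lay inside it. Mdm2 stood at the 4.85th percentile and Bbc3 at the 95.4th, with Trp53inp1 at the 10.8th and Zmat3 at the 78.8th. The others lay between the 25th and the 65th percentile, with Phlda3 at the 25.3rd and Sesn1 at the 64.3th. Differences of probe sets of 1 gene varied around the mean of that gene with a standard deviation of 0.40 (1722 probe sets of 642 genes). It measures agreement inside the arrays and says nothing of the variation from culture to culture. Mdm2, Trp53inp1 and Bbc3 had differences larger than this value and the other 5 did not. In the order from Mdm2 to Bbc3, each of the 7 steps between neighbouring genes was smaller than it. Sorting 8 values between -0.62 and 0.56 makes small steps likely, so they say nothing of the order as a whole.

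**Figure D2:**
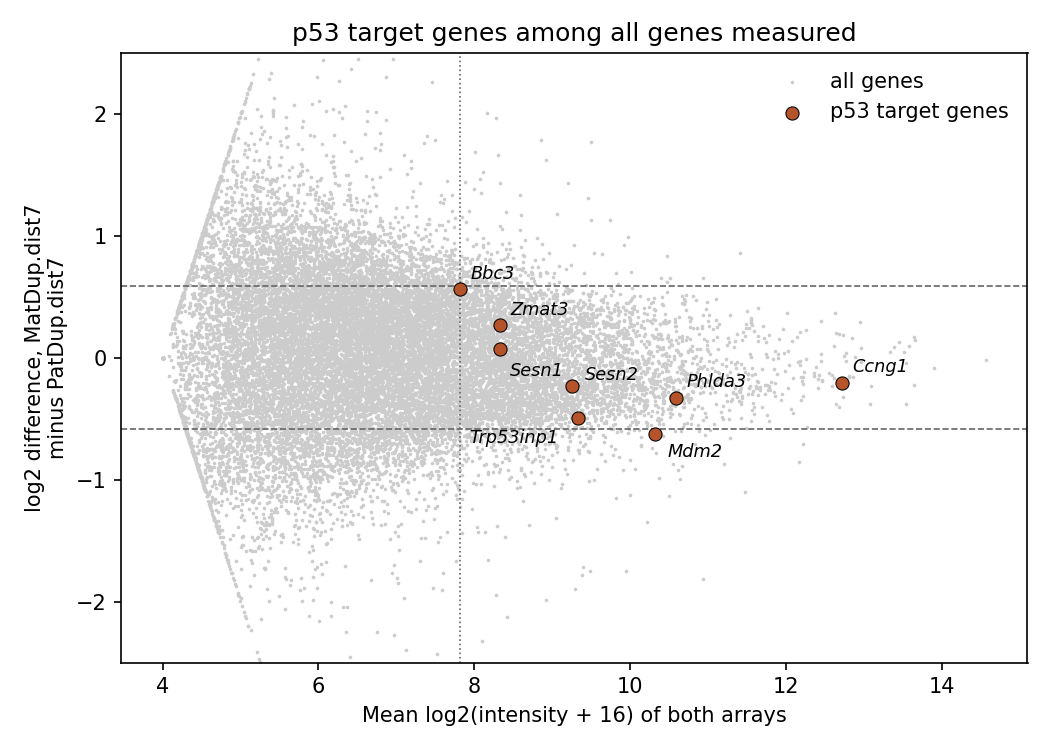
Each grey point is 1 of the 19938 genes, with the mean log2(intensity + 16) of both arrays on the horizontal axis and the log2 difference, MatDup.dist7 minus PatDup.dist7, on the vertical axis; 21 genes lie beyond the vertical range of 2.5. Dashed lines mark 1.5-fold and the dotted line the mean level of Bbc3; the 8 p53 target genes (filled circles) lie within the cloud, with Mdm2 just past the lower line.

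**Figure D3:**
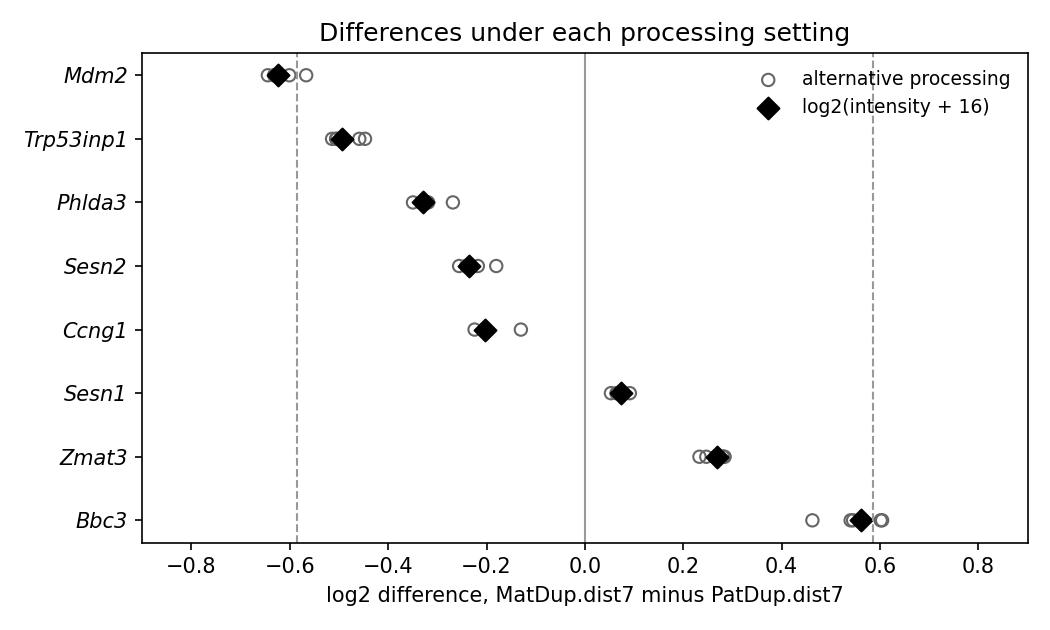
The log2 difference of each p53 target gene (MatDup.dist7 minus PatDup.dist7) as reported (filled diamond) and under 8 alternative ways of processing the arrays (open circles), with 1.5-fold as dashed lines. No gene crosses 0, while Mdm2 (-0.64 to -0.57) and Bbc3 (0.46 to 0.60) each cross the 1.5-fold line under some setting.

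Mdm2 passed 1.5-fold under all settings tried but quantile normalisation, where its difference was -0.57. Bbc3 passed it, at 0.60, if the pseudocount was 1 or if intensities were floored at their 25th percentile. The plain ratio of its intensities was 1.52.

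By position, the 8 genes lie on chromosomes 1, 3, 4, 7, 10 and 11. Bbc3 is the one measured on chromosome 7, the chromosome of the duplication. It stands at place 168 of the 1734 measured genes in their order along that chromosome, while the imprinted genes Igf2 and Cdkn1c of the distal cluster stand at places 1695 and 1707. Where the duplicated segment begins is not stated in the sources used here. Bax also lies on chromosome 7 and has no value.

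Paralogs of the targets, genes of the same families, mostly differed less. The 12 such genes had a median of -0.05. In MatDup.dist7, 1 of them was higher by 1.5-fold or more (15.5% of all genes were) and 1 lower (12.5% of all genes were). The lower one was Mdm4, which encodes the partner of Mdm2 that masks the activation domain of p53. It had 40.2 and 105, a difference of -1.11. The size depends on the pseudocount, with -1.37 for 1 and -0.70 for 64. The higher one was the X-linked Zmat1, with 14.6 and 4.06 (0.61), both under the signal filter.

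Among the sestrins, Sesn3 had 217 and 312 (-0.49), which puts the family in the order Sesn3, Sesn2, Sesn1 from lower to higher in MatDup.dist7. Cyclin G2 (Ccng2) had 296 and 254, a difference of 0.21 and opposite in sign to that of Ccng1. Trp53inp2 had 266 and 271 (-0.02), against -0.49 for Trp53inp1. The gap between the last pair was -0.47, and that between Ccng1 and Ccng2 -0.41, both near the probe-set standard deviation of 0.40. That value is for the difference of a single probe set, and a gap between the differences of 2 genes varies more. Phlda1 and the imprinted Phlda2 of distal chromosome 7 had differences of -0.08 and 0.15, and Zmat2, Zmat4 and Zmat5 of -0.01, -0.08 and -0.12.

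The regulators of p53 differed in both directions. All 17 were measured. Negative differences numbered 12 (70.6%), against 48.6% of all genes and 58.7% of those at the level of the 8 targets. At least 1.5-fold lower in MatDup.dist7 were 5 genes (29.4%), against 12.5% of all genes, and none was 1.5-fold higher. The median of the 17 was -0.27. Only 13 of the 17 passed the signal filter. Of these 13, 8 (61.5%) had a negative difference, against 50.7% of all genes above the filter. Those at least 1.5-fold lower numbered 3 of the 13, against 10.9% of all genes above the filter. Of these 3, Mdm4 (40.2 and 105) passed the filter only through the PatDup.dist7 array, where it was higher. Among all 17 regulators, the genes at least 2-fold lower (3.16% of all genes were) were Chek1, Atm and Mdm4. Atm and Chek1 encode kinases that signal DNA damage to p53. Atm had 8.01 and 37.9 (-1.17), and Chek1 had 0.0212 and 38.5 (-1.77). Both lay under the signal filter, and the size of their differences depends on the pseudocount (Atm -2.11 with 1 and -0.50 with 64, Chek1 -5.27 and -0.68).

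The others at least 1.5-fold lower were Ep300 and Cdkn2a. Ep300, which encodes the acetyltransferase p300 and coactivates p53, had 235 and 381 (-0.66), and its relative Crebbp had 295 and 448 (-0.58, just short of 1.5-fold). Cdkn2a, the locus of p16Ink4a and of p19Arf, which blocks Mdm2, had 205 and 322 (-0.61), and the array value does not separate its products. Trp53bp1 and Chek2, both of the damage response, had -0.56 and -0.53. On the other side were Trp73, a p53 relative, with 70.5 and 46.9 (0.46), and the p53 ubiquitin ligase genes Rchy1 (0.32) and Cop1 (0.26). The 2 probe sets of Cop1 disagreed, with 0.56 and -0.04. Ppm1d, which encodes the phosphatase Wip1 of the negative feedback on p53, had 0.18.

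Other reported p53 targets were taken as 3 lists of 49 genes in all, of which 44 were measured. In these, 32 differences were negative, 10 genes were at least 1.5-fold lower in MatDup.dist7 (22.7%) and 3 were at least 1.5-fold higher (6.82%). The median was -0.33. Over all genes the difference was negative for 48.6%, 12.5% were at least 1.5-fold lower and 15.5% at least 1.5-fold higher. These shares serve for the lists and markers that follow, but are not matched for signal level. Of the 44 genes, 41 passed the signal filter. In these, 30 (73.2%) lay lower in MatDup.dist7, 10 of them by 1.5-fold or more, and 3 lay higher by as much. For all genes above the filter the matching shares were 50.7%, 10.9% and 12.2%. For the 5221 genes whose mean level reached that of Bbc3 they were 58.7%, 6.21% and 4.12%. The lists were written with earlier results of these arrays known, so the counts are a description of them. Sfn, the stratifin gene and a known p53 target in epithelium, was listed with the epithelial markers and not here; its difference was 4.47, higher in MatDup.dist7.

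Of 15 measured genes for growth arrest and DNA repair, 5 (33.3%) were at least 1.5-fold lower in MatDup.dist7 and 2 (13.3%) higher, with a median of -0.21. Plk3, a stress-response kinase gene, had 119 and 241 (-0.93), and Gadd45a, a growth arrest and damage-response gene, had 92.8 and 184 (-0.88). Polk, which encodes a translesion DNA polymerase, had 129 and 244 (-0.84), Rprm, the arrest gene reprimo, 57.5 and 109 (-0.77), and Gtse1, whose product binds p53 and moves it out of the nucleus, 186 and 290 (-0.60). The higher ones were Ddb2 and Rrm2b. Ddb2, a damage-recognition factor of nucleotide excision repair, had 113 and 56.6 (0.83). Rrm2b, the p53-inducible subunit of ribonucleotide reductase, had 103 and 56.3 (0.72). With a pseudocount of 64, 3 genes of this list were at least 1.5-fold lower and none higher (Ddb2 0.55, Rrm2b 0.47). Of all 19938 genes 742 were lower and 817 higher by that measure. Ddb2 and Rrm2b lay under the filter intensity of 66.4 on the PatDup.dist7 array, and Rprm on the other. Plk2 and Btg2 lay at -0.02 and -0.21.

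Of 16 apoptosis targets, 3 (18.8%) were at least 1.5-fold lower in MatDup.dist7 (12.5% of all genes were) and 1 (6.25%) higher (15.5% of all genes were), and the median was -0.33. Steap3, a metalloreductase gene also known as Tsap6, had 45.7 and 107, a 2-fold difference,, Perp, a membrane protein gene of desmosomes and cell death, 202 and 402 (-0.94), and Bid, a BH3-only activator of Bax, 198 and 329 (-0.69). Tnfrsf10b, the mouse death receptor for TRAIL, went the other way with 470.0 and 236 (0.95). Fas, another death receptor gene, had 225 and 155 (0.50), short of 1.5-fold. Thus Bbc3, Fas and Tnfrsf10b had positive differences, while Bid, Perp, the X-linked receptor gene Eda2r (-0.57) and Apaf1 (-0.35), which encodes the apoptosome scaffold, had negative ones.

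Of 13 measured metabolic and redox targets, 2 (15.4%) were at least 1.5-fold lower in MatDup.dist7, near the 12.5% of all genes, and none was higher. The median was -0.40. Hmox1, the heme oxygenase gene, had 1128 and 2152 (-0.92), and Lpin1, a phosphatidate phosphatase gene, had 66.5 and 121 (-0.74). Tigar, which diverts glucose from glycolysis, and Prkab1, an AMPK subunit gene, had -0.51 and -0.52. Ndrg1 (0.55) and the glutathione peroxidase gene Gpx1 (0.39) were on the other side.

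The BCL-2 family, on which Bbc3 and Bax act, had a median of -0.23 in 13 measured genes. Of these, 3 (23.1%) were at least 1.5-fold lower in MatDup.dist7 (12.5% of all genes were) and 1 (7.69%) higher (15.5% of all genes were). With a pseudocount of 64 none was 1.5-fold lower (742 of all 19938 genes were), and the median was -0.13. Bid and Pmaip1 are also counted with the apoptosis targets. The survival gene Bcl2l2 had 86.9 and 146 (-0.66), and the BH3-only genes Bcl2l11 (BIM) and Bid had -0.62 and -0.69. Bok, a pore-forming relative of Bax, had 843 and 436 (0.93), whereas Bak1, the other main pore former, had 843 and 1098 (-0.38). Mcl1 and Bcl2l1, survival genes, had -0.24 and -0.01. The gene for NOXA, Pmaip1, a p53 target and BH3-only protein like PUMA, differed by -0.18, a gap of 0.74 from Bbc3.

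**Figure D4:**
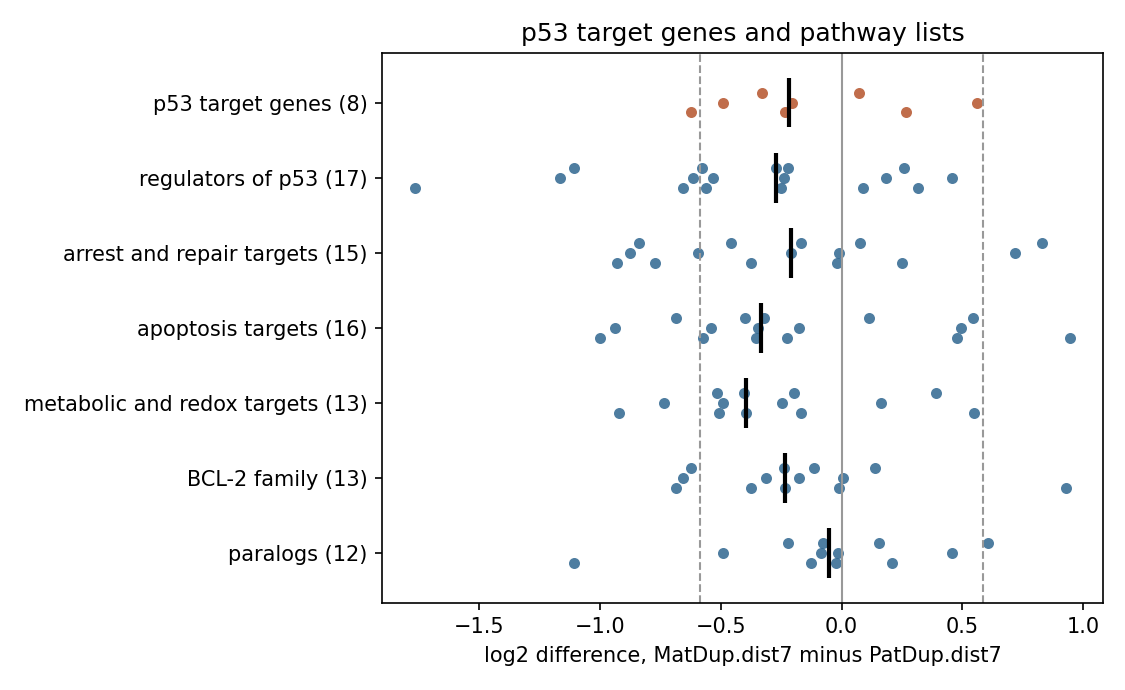
Log2 differences, MatDup.dist7 minus PatDup.dist7, of the measured genes in each list (numbers in brackets), 1 point per gene, with the list median as a black bar and 1.5-fold as dashed lines. Medians run from -0.40 for metabolic and redox targets to -0.05 for paralogs, and every list holds genes on both sides of 0.

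Markers of the cultures differed as well; their counts are of genes at least 1.5-fold apart, which over all genes was 15.5% higher and 12.5% lower in MatDup.dist7. Of 12 fibroblast markers 11 passed the signal filter, and the summed intensity of the 12 was 42271 and 49976. By at least 1.5-fold, 1 of 12 was higher in MatDup.dist7 (S100a4, 0.84) and 2 were lower (Dcn, -1.95, and Postn, -1.75). The summed intensity of 8 epithelial markers was 1183 and 447, with 4 of 8 higher in MatDup.dist7 by 1.5-fold or more. Only 6 of the 8 passed the signal filter, which takes the higher array, and 3 of these were higher by this measure. Among them was Sfn, with mean intensities of 398 and 2.02 and differences of 5.05 and 3.89 at its 2 probe sets. Without Sfn the sum of the other 7 was 785 and 445. The sum of 10 macrophage markers was 4916 and 5298, with 1 higher and 3 lower in MatDup.dist7 by this measure. That of 6 endothelial markers was 305 and 356, with 3 lower. Only 1 of these 6 passed the signal filter, and none of the 3 lower ones did. For 6 skeletal muscle markers the sum was 2572 and 2241, with 2 lower. Of the muscle markers 4 of 6 had a negative difference (median -0.18), and the larger sum in MatDup.dist7 came from Acta1 (1887 and 1379). No marker of these lists was listed at 0. The Y-linked Eif2s3y, Uty and Kdm5d were more than 1.5-fold higher in the MatDup.dist7 culture and Xist in the other, so sex and genotype cannot be told apart. The part of the other cell types in the differences of the p53 genes was not tested.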

How the data were processed

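Total RNA of 1 MatDup.dist7 and 1 PatDup.dist7 culture was hybridised to Affymetrix whole-transcript arrays, per the labels' protocols. The authors deposited 1 linear intensity per probe set and array, made with Affymetrix Expression Console per the submitters' processing notes. Which background correction, summarisation and normalisation were applied was not given in the sources used here. Each array had 35557 values, none of them 0 or below, and the medians were 68.6 and 64.2. The platform annotation gave 1 symbol to 21789 probe sets, several to 1621 and none to 12147, and only the first were used. Symbols and gene order came from the reference gene table of GRCm38.p6, matched by gene identifier for 21698 probe sets. Intensities were transformed to log2(intensity + 16) and averaged over a gene's probe sets. A gene passed the signal filter where its higher mean intensity exceeded the 50th percentile of all values, 66.4. A fold of 1.5 or 2 on this scale described the differences; the scale understates the differences of genes with low signal.

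With 1 array per genotype no test was made; precision is limited by the number of arrays. The members, lists and pseudocount were chosen with earlier results of these data known. The text names every member, every listed pathway gene at least 1.5-fold apart and, chosen after their values were seen, other examples from the lists. The calculations were tested on simulated arrays. Python 3.11.15, numpy 2.4.6, pandas 2.3.3 and matplotlib 3.10.9 were used.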

Additional observations from a re-analysis of the deposited data

How the results depend on the processing

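Under 8 alternatives (pseudocounts of 1 and 64, quantile normalisation, centring, a floor at the 25th percentile, the brightest probe set, leaving out probe sets under 1, and the signal filter) 5 of the 8 p53 targets stayed lower in MatDup.dist7, and their median difference ran from -0.24 to -0.16. Each target rests on 1 probe set above the filter, so the last 3 alternatives cannot alter its value and a pseudocount or floor cannot turn its sign. Centring moves each difference by 0.02, less than the smallest of them (0.07 for Sesn1). Only quantile normalisation could therefore have changed that count. None of the 30 genes followed through these settings (the 8 targets and the pathway genes at least 1.5-fold apart) changed sign where it had a value. The pathway genes were taken for their large differences, which left little room for a change of sign. Zmat1 was 0 under the floor. Atm, Chek1 and Zmat1 had no value under the signal filter, and Chek1 none without probe sets under 1. The number of targets at least 1.5-fold apart was 1, or 2 with a pseudocount of 1, 2 with the floor and 0 after quantile normalisation. Over all genes, 5571 were at least 1.5-fold apart, or 1559 with a pseudocount of 64 and 2953 above the signal filter; 1522 were at least 2-fold apart, or 3887 and 173 with pseudocounts of 1 and 64 and 657 above the filter. Of the other targets, 6 to 12 were at least 1.5-fold lower and 1 to 5 higher in MatDup.dist7. By the same measure 2 to 8 of the regulators and 0 to 3 of the BCL-2 family were lower. No array could be left out. No paired analysis was possible because each genotype has 1 array.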
